A study of Mus musculus with 5 samples.

Results

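The genes described here are 10 genes of glucose uptake and glycolysis, of 28001 features counted in each library: Slc2a1, Hk1, Hk2, Aldoa, Gapdh, Pgk1, Eno1, Pkm, Ldha and Ldhb. They were chosen by name, and all 10 were found among the features and passed the filter on low counts in every comparison. Their levels were followed in 4 mouse sarcoma libraries and 1 library of mesenchymal progenitors from resting hindlimb muscle, read by sequencing the 3′ ends of transcripts from single cells in droplets. The sarcomas, labelled epithelioid sarcoma at endpoint, came from C57BL/6J mice of genotype Hic1CreERT2/CreERT2;Rosa26LSLtdTomato/LSLtdTomato;Smarcb1FL/FL, in which the tamoxifen-activated Cre of Hic1-expressing cells deletes Smarcb1, which encodes a SWI/SNF chromatin remodelling subunit, and switches on the red reporter tdTomato. The labels place tumour 1 at the shoulder, 2 at the head, 3 at the head and ear and 4 at the hip, and do not say whether they came from separate animals. The muscle cells came from C57BL/6J mice of genotype Hic1CreERT2/CreERT2;Rosa26LSLtdTomato/+, which keep Smarcb1. In every group CreERT2 sits in both copies of Hic1. All mice received 2.5 mg tamoxifen in 100 µL oil daily for 5 days at 8 weeks of age, with a 10 day washout per the labels. Genotype, site and tumour state differ together between sarcoma and muscle and cannot be told apart.

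Slc2a1 encodes GLUT1, the glucose carrier of most dividing cells. Hexokinases, encoded by Hk1 and Hk2, trap glucose in the cell as its phosphate: Hk1 is the broadly expressed form and Hk2 the regulated form of muscle and fat that many tumours use. Aldolase (Aldoa), glyceraldehyde phosphate dehydrogenase (Gapdh), phosphoglycerate kinase (Pgk1), enolase (Eno1) and pyruvate kinase (Pkm) carry the sugar to pyruvate. Lactate dehydrogenase subunit A (Ldha) favours the turning of pyruvate into lactate, and subunit B (Ldhb) the reverse. Most of these genes are textbook targets of the hypoxia-inducible factors (HIF), which bind the letters ACGTG or GCGTG in DNA. All 10 are protein-coding in GENCODE M21 on GRCm38. Hk2, Gapdh and Ldhb lie on chromosome 6, Slc2a1 and Eno1 on chromosome 4, Aldoa and Ldha on chromosome 7, Pkm on chromosome 9, Hk1 on chromosome 10 and Pgk1 on chromosome X.

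Promoters of all 10 genes were in the RefSeq table of GRCm38.p6, with 17 windows of 250 bases before to 50 bases after a transcription start. ACGTG, searched on both strands, stood in a window of 8 of the 10 genes, against 21.8% of all 27025 genes in the table. GCGTG stood in a window of 6 of the 10, against 35.2% of all genes. CACGTG, which contains ACGTG, stood in a window of Ldha alone among the 10, against 8.09% of all genes. Genes differ in their number of windows, and a match describes the letters only. The 250 bases before the start are shown for the 3 genes with the largest difference between HIF-target-high and HIF-target-low sarcoma cells and for Ldhb, which had the smallest, a choice made after those values were seen. Capitals mark ACGTG and GCGTG and their reverse complements CACGT and CACGC, and each sequence is read 5′ to 3′ on the strand of its gene.
Hk2 promoter, chr6:82774455-82774704, minus strand: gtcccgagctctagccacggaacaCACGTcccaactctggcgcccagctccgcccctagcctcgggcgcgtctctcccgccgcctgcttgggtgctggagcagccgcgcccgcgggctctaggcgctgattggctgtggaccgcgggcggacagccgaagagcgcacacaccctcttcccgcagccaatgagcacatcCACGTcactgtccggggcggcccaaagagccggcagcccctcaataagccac
Pgk1 promoter, chrX:106186850-106187099, plus strand: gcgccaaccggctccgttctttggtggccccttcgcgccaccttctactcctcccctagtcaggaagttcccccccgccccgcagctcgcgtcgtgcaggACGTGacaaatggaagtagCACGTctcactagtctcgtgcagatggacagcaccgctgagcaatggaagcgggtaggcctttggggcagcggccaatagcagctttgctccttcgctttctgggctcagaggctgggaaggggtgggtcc
Slc2a1 promoter, chr4:119108495-119108744, plus strand: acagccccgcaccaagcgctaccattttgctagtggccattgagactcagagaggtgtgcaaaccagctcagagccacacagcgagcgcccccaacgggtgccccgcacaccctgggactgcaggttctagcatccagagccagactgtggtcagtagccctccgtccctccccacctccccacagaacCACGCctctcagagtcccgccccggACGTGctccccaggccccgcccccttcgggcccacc
Ldhb promoter, chr6:142507958-142508207, minus strand: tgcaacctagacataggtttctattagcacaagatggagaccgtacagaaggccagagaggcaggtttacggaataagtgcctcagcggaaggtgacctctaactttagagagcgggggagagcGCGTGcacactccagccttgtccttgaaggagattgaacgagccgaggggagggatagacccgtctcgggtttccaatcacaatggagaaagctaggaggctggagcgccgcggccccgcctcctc
The Hk2 promoter held 2 ACGTG matches, whose first bases lay 226 and 52 bases before the start. Pgk1 held 2, at 150 and 131 bases before the start. Slc2a1 held 1 ACGTG at 36 bases and 1 GCGTG at 61 bases before the start. Ldhb held no ACGTG and 1 GCGTG, at 126 bases before the start.

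Cells were placed in classes by a few genes that are none of the 10. Sarcoma cells had at least 2 UMIs (unique molecular identifiers, 1 per captured transcript) of Gchfr, an inhibitor of tetrahydrobiopterin synthesis, and 0 of Smarcb1. They numbered 5142, 7423, 2851 and 3265 in sarcomas 1 to 4. Stroma, cells with 4 or more UMIs summed over Ddah1, Wisp1, C1qtnf7 and Fbn2, numbered 184, 156, 1732 and 79. Muscle progenitors, cells with at least 1 UMI of Pdgfra, a receptor of mesenchymal progenitors, numbered 6117. Median depth was 23138 to 32516 UMIs per cell in sarcoma cells and 20698 to 34496 in stroma, against 8513 in muscle progenitors. The stroma class of sarcoma 4 went against its name. A Smarcb1 UMI was present in 16.5% of its cells, against 57.1%, 76.3% and 69.2% in the stroma of sarcomas 1 to 3. Its 8 fibroblast genes summed to 6606 CPM (counts of a gene scaled to a total of 1e6), against 37429 to 58392 CPM in the other 3. For Hk2 and for counts of calls, results are therefore also given without sarcoma 4 and with stroma limited to cells with a Smarcb1 UMI. Those cells numbered 105, 119, 1198 and 13. Most other stroma values below include the full stroma class of sarcoma 4. Between 12 and 22 cell barcodes were shared by any 2 libraries, and doublets were not removed.

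Together the 10 genes took 0.234%, 0.241%, 0.221% and 0.457% of the UMIs of sarcoma cells in sarcomas 1 to 4. In stroma they took 0.255%, 0.166%, 0.173% and 0.466%, and in muscle progenitors 0.119%. Every sarcoma class thus lay above the muscle progenitors, and in each class sarcoma 4 was highest. The stroma class of sarcoma 4 went against its name, so it is no separate check on the sarcoma cells of that tumour. Levels below are CPM of the UMIs summed over the cells of a class and library. A 3′ tag is counted once per captured transcript whatever the transcript's length, so CPM needs no length scaling here, but capture can differ between genes.

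**Figure D1:**
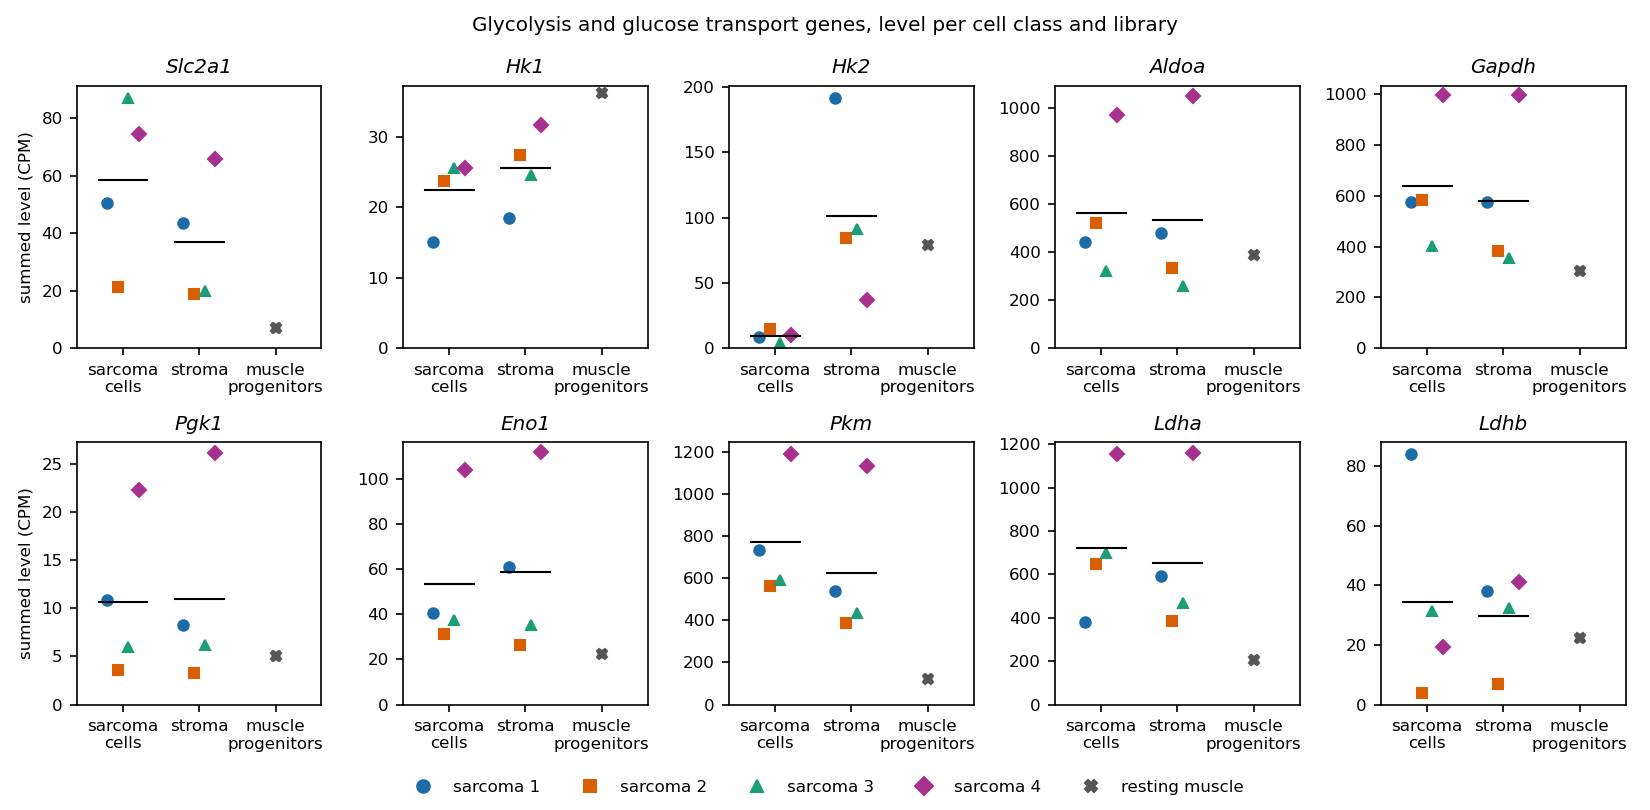
Summed level (CPM, linear axis from 0) of each of the 10 genes in sarcoma cells, stroma and muscle progenitors, with 1 symbol per library and a bar at the mean of the 4 sarcomas. Hk2 lies lower in sarcoma cells (4.31 to 14.5 CPM) than in stroma (36.9 to 191 CPM) or muscle progenitors (79.1 CPM), and sarcoma 4 is the highest library for Aldoa, Gapdh, Pgk1, Eno1, Pkm and Ldha.

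Glucose carrier Slc2a1 had 50.6, 21.3, 87.2 and 74.4 CPM in sarcoma cells of sarcomas 1 to 4. Stroma had 43.5, 18.7, 19.8 and 65.8 CPM, and muscle progenitors 7.07 CPM. The sarcoma cells and stroma overlapped as groups, and both lay above muscle progenitors in every library. Within each library sarcoma cells were above stroma by CPM, by 1.16-fold, 1.14-fold, 4.41-fold and 1.13-fold in sarcomas 1 to 4. Counting cells did not give this order in every library. With cells thinned to the same depth, 8.77%, 2.85%, 12.8% and 11.6% of sarcoma cells had an Slc2a1 UMI. The shares of stroma were 6.56%, 3.21%, 3.12% and 10.1%. Unthinned, sarcoma cells were at 50.7%, 21.2%, 53.0% and 49.9%, and stroma at 49.5%, 27.6%, 26.7% and 60.8%.

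The 2 hexokinases were ordered differently. Hk1 had 15.1, 23.7, 25.6 and 25.6 CPM in sarcoma cells and 18.4, 27.4, 24.6 and 31.7 CPM in stroma, against 36.1 CPM in muscle progenitors. The sarcoma classes overlapped in Hk1, and all 8 of their values lay below muscle progenitors. Hk2 had 8.73, 14.5, 4.31 and 10.2 CPM in sarcoma cells, a mean of 9.43 ± 4.19 (SD, n = 4). In stroma Hk2 had 191, 84.0, 91.6 and 36.9 CPM, a mean of 101 ± 64.9 (SD, n = 4), and in muscle progenitors 79.1 CPM. No sarcoma-cell value reached a stroma value, and the lowest stroma value was that of sarcoma 4. Stroma of sarcoma 4 with a Smarcb1 UMI had 98.8 CPM (95% exact Poisson interval 69.9 to 136, from 38 UMIs in 13 cells). Intervals of this kind cover counting error only.

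Hk1 made up 63.3%, 62.2%, 85.6% and 71.5% of Hk1 and Hk2 tags in sarcoma cells. In stroma it made up 8.79%, 24.6%, 21.2% and 46.2%, and in muscle progenitors 31.4% (95% exact binomial interval 30.2 to 32.5). The means were 70.6% ± 10.8 in sarcoma cells and 25.2% ± 15.6 in stroma (SD, n = 4), a difference in the same direction in 4 of 4 libraries. A two-sided exact permutation test over the 4 pairs gave p = 0.12, the smallest this design allows.

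Counting cells gave the same order for Hk2. With each cell thinned to 2000 UMIs, 1.52%, 1.94%, 0.458% and 1.48% of sarcoma cells had an Hk2 UMI. The shares were 26.2%, 15.4%, 15.5% and 8.86% of stroma and 10.6% of muscle progenitors. Unthinned, they were 3.54% to 9.80% of sarcoma cells, 32.9% to 76.6% of stroma and 25.7% of muscle progenitors. Thinning left out 0 to 149 cells of a class and library. Free RNA can give UMIs in cells that do not express a gene, and the low share in sarcoma cells was not separated from that background.

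The enzymes of the lower pathway overlapped between sarcoma cells and stroma. Aldoa, which splits the sugar, had 442, 520, 322 and 972 CPM in sarcoma cells and 481, 336, 259 and 1051 CPM in stroma, against 390 CPM in muscle progenitors. Gapdh, the oxidising step, had 576, 585, 402 and 996 CPM in sarcoma cells and 576, 382, 356 and 998 CPM in stroma, against 305 CPM in muscle progenitors. In both genes sarcoma 4 was highest and sarcoma 3 lowest in either class. Pgk1, the first step that yields ATP, was sparse, at 10.8, 3.63, 6.03 and 22.3 CPM in sarcoma cells and 8.27, 3.28, 6.15 and 26.1 CPM in stroma, against 5.09 CPM in muscle progenitors. Eno1, which makes phosphoenolpyruvate, had 40.6, 31.3, 37.3 and 104 CPM in sarcoma cells and 61.0, 26.4, 35.4 and 112 CPM in stroma, against 22.3 CPM in muscle progenitors. Sarcoma 4 was again highest in both classes. The last 400 bases of the Gapdh transcripts matched 74 other annotated genes over 90 bases or more at 97% identity or more, 1 of them among the features, and those of Eno1 matched 2, 1 of them among the features. Pkm, Ldha and Ldhb matched 1, 3 and 1, with 0 among the features. Counts of Gapdh and Eno1 are uncertain to the extent that the authors' counting dropped or split such reads.

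Pkm, which makes pyruvate, had 731, 563, 593 and 1191 CPM in sarcoma cells and 538, 387, 436 and 1134 CPM in stroma, against 121 CPM in muscle progenitors. Every sarcoma value was at least 3.20 times the muscle value. Ldha had 383, 648, 700.1 and 1156 CPM in sarcoma cells and 594, 384, 470.5 and 1162 CPM in stroma, against 206 CPM in muscle progenitors. Ldhb had 84.0, 3.71, 31.3 and 19.3 CPM in sarcoma cells and 38.1, 7.02, 32.3 and 41.1 CPM in stroma, against 22.4 CPM in muscle progenitors. Sarcoma 2 was lowest in both classes. Of the tags of both lactate dehydrogenase genes, Ldha made up 93.9% ± 8.07 in sarcoma cells and 95.6% ± 2.2 in stroma (SD, n = 4), against 90.2% in muscle progenitors. Sarcoma 1 was the lowest of the sarcoma-cell values, at 82.0%. The exact permutation test over pairs gave p = 1 for sarcoma cells against stroma, which does not show that they are alike.

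Sarcoma cells were then set against the stroma of the same tumour. No gene of the 10 passed the test, edgeR's quasi-likelihood test on summed counts with the library as a block and Benjamini-Hochberg adjustment at 0.05 over 14569 genes. That test called 34 genes higher (0.233%) and 137 lower (0.94%), and 2 of the 10 had an unadjusted p under 0.05, against 26.9% of all genes. Hk2 was 10.0 times lower in sarcoma cells, with a log2 fold change of -3.32 ± 0.62 (SE) and an adjusted p of 0.0892. It was lower in 4 of 4 libraries, by 3.61 to 21.9 times. Without sarcoma 4 the edgeR adjusted p of Hk2 was 0.0355 at a log2 fold change of -3.84, and with stroma limited to cells with a Smarcb1 UMI it was 0.0169 at -3.60. Over the 17 alternatives the log2 fold change ran from -3.84 to -2.88 and the adjusted p from 5.18e-07 (DESeq2) to 0.272 (without sarcoma 1). Pkm was higher by 0.38 ± 0.12 on the log2 scale (edgeR adjusted p = 0.154) and Slc2a1 by 0.68 ± 0.37 (edgeR adjusted p = 0.287). The other 7 genes lay between -0.22 and 0.21. DESeq2 called 2 of the 10, 1 higher and 1 lower. It also called many more of all genes than edgeR did, with totals given below among the processing alternatives. The 2 DESeq2 calls therefore do not set the 10 apart from other genes.

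By CPM, Slc2a1 and Pkm were above stroma in all 4 libraries, as were 18.8% of the 12843 genes with at least 1 CPM. Hk2 was below in all 4, as were 16.9%. The median log2 fold change of the 10 was 0.13, beside 0.07 over all genes tested. Stroma differed in other ways from sarcoma cells. Its mural markers summed to 941, 409, 375 and 68.6 CPM, against 18.1, 26.6, 520.2 and 6.48 CPM in sarcoma cells, and its haematopoietic markers to 3.83 to 90.1 CPM, against 1.58 to 6.44 CPM. Sarcoma cells had 248 to 579.6 CPM of the 10 cycling genes, against 89.6 to 244 CPM in stroma. The part of these differences in the Hk2 result was not tested. Fewer transcripts per cell and fewer cells with transcripts cannot be told apart in summed counts.

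**Figure D2:**
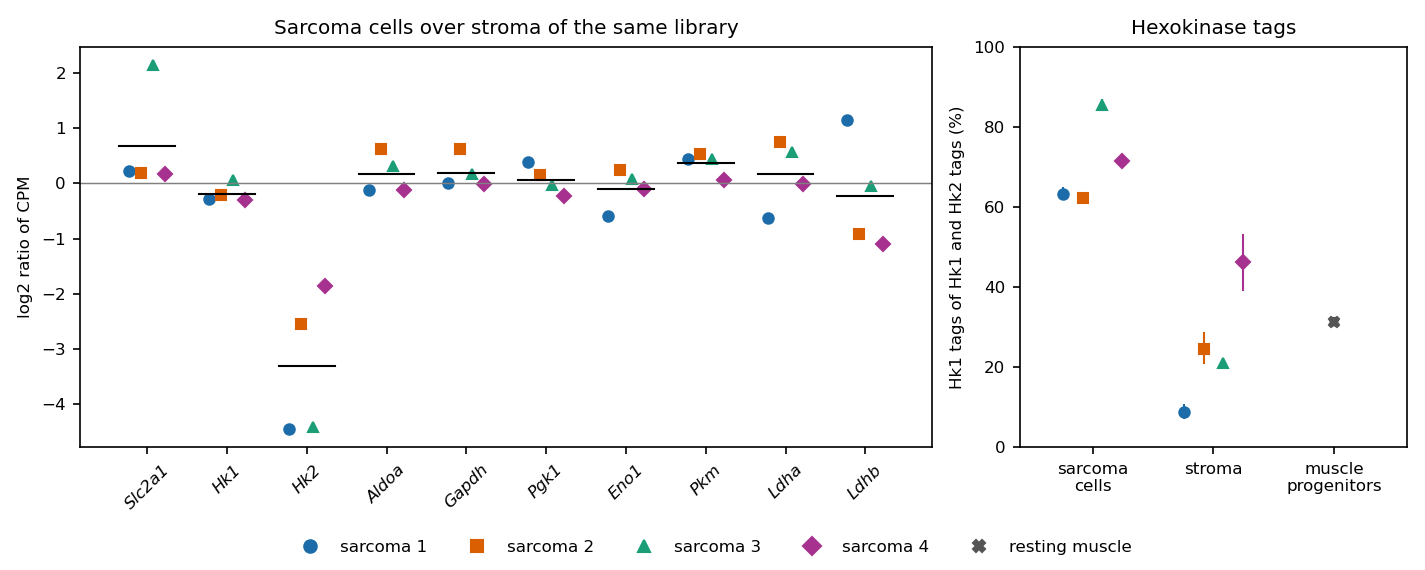
Left, log2 ratio of CPM, sarcoma cells over stroma of the same library, for each of the 10 genes (symbols are libraries, the bar is their mean, the grey line is equality); right, Hk1 tags as a percentage of Hk1 and Hk2 tags per class and library, with 95% exact binomial intervals. Hk2 lies below the line in all 4 libraries, and the Hk1 share is 62.2% to 85.6% in sarcoma cells against 8.79% to 46.2% in stroma.

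Neighbouring genes of the pathway gave no call in this comparison. Of 28 other genes of glycolysis and glucose transport, 21 were tested and 0 were called by edgeR, with 6 at an unadjusted p under 0.05 and a median log2 fold change of -0.05. The 4 with the highest mean level were Pgam1, Tpi1, Gpi1 and Pfkl, the mutase, the triose isomerase, the phosphoglucose isomerase and the liver-type phosphofructokinase. Their log2 fold changes were -0.03, 0.21, 0.48 and -0.26. Of 20 tested HIF targets outside glycolysis, 1 was called lower, the stress-response gene Ndrg1. Ndrg1 had 0.661, 0.462, 2.51 and 0.632 CPM in sarcoma cells and 57.4, 36.5, 108 and 9.05 CPM in stroma, a log2 fold change of -5.57 ± 0.58 (edgeR adjusted p = 0.0334). Of 11 tested genes on a list of HIF factors and regulators, 0 were called. The 4 with the highest mean level were Hif1a, Txnip, Myc and Max. Hif1a, a HIF subunit, had 41.1, 39.6, 145 and 41.7 CPM in sarcoma cells and 242, 250.1, 179.6 and 56.1 CPM in stroma. Its log2 fold change was -1.48 ± 0.55 (edgeR adjusted p = 0.175). Txnip was at -1.49 ± 0.30 (edgeR adjusted p = 0.0993), Myc at -0.52 ± 0.78 and Max at -0.28 ± 0.15.

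Against muscle progenitors, 8 of the 10 genes had a positive fold change in sarcoma cells, as did 57.8% of all 17632 genes tested. The 1 muscle library was assumed to vary like the sarcomas, so each SE here holds no spread among muscle libraries. With 1 muscle library, edgeR's quasi-likelihood test called 0 of 17632 genes (0%), with 2217 at an unadjusted p under 0.05, and 3 of the 10 were among those 2217. DESeq2 called 988 genes higher and 926 lower, 2 and 1 of them among the 10. Slc2a1 was higher by 3.18 ± 0.90 on the log2 scale (edgeR adjusted p = 0.287), Pkm by 2.85 ± 0.75 (edgeR adjusted p = 0.258) and Ldha by 1.97 ± 0.77 (edgeR adjusted p = 0.403). Hk2 was lower, at -2.86 ± 0.66 (edgeR adjusted p = 0.228), and Hk1 was at -0.52 ± 0.37. The median of the 10 was 1.27, beside 0.20 over all genes, which fell to 0.04 with scaling by library totals. Of 25 other tested genes of glycolysis and glucose transport, 14 had a positive fold change, with a median of 0.29. The 4 of them with the highest mean level were Pgam1, Tpi1, Gpi1 and the phosphofructokinase Pfkp, at 1.96, 1.25, 1.41 and -1.06. By CPM, Slc2a1, Gapdh, Eno1, Pkm and Ldha lay above the muscle value in all 4 sarcomas, as did 24.5% of the 12816 genes with at least 1 CPM. Hk1 and Hk2 lay below it in all 4, as did 29% of those genes.

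Stroma was set against the same muscle library, so the 2 comparisons share it. edgeR called 0 of 12793 genes (0%), 1258 had an unadjusted p under 0.05 and DESeq2 called 426 higher and 210 lower, Pkm being the 1 gene of the 10 among them. Slc2a1 had a log2 fold change of 2.42 ± 0.91 (edgeR adjusted p = 0.497) and Pkm of 2.41 ± 0.78 (edgeR adjusted p = 0.463). Hk2 was at 0.43 ± 0.89 in stroma against muscle progenitors, where sarcoma cells were at -2.86. Slc2a1, Gapdh, Eno1, Pkm and Ldha were above muscle in all 4 libraries, as were 20.1% of 12867 genes, and Hk1 below, as were 29.8%. Whole sarcoma libraries against the whole muscle library gave 0 calls of 18739 genes (0%) by edgeR, with 1715 at an unadjusted p under 0.05, while DESeq2 called 661 higher and 511 lower.

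Several measures moved with the contrast to muscle. The 18 dissociation-response genes summed to 7301 to 9536 CPM in sarcoma cells and 8387 to 13613 CPM in stroma, against 29149 CPM in muscle progenitors. The 8 muscle fibre and myogenic markers summed to 1.34 to 8.03 CPM in sarcoma cells and 5.22 to 28.1 CPM in stroma, against 97.5 CPM in muscle progenitors, where 0 of the 8 were at 0. The 10 cycling genes summed to 248 to 579.6 CPM in sarcoma cells and 89.6 to 244 CPM in stroma, against 14.7 CPM in muscle progenitors, and all 10 had a positive fold change in both comparisons.

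Markers of other cell types also differed from muscle. The 8 fibroblast genes summed to 3999 to 15289 CPM in sarcoma cells and 6606 to 58392 CPM in stroma, against 80591 CPM in muscle progenitors, and in sarcoma cells 0 of the 8 were positive. The 6 haematopoietic markers summed to 1.58 to 6.44 CPM in sarcoma cells and 3.83 to 90.1 CPM in stroma, against 0.773 CPM in muscle progenitors, where 2 of the 6 were at 0. Keratinocyte markers summed to 15.2 to 32.6 CPM in sarcoma cells and 16.4 to 32.5 CPM in stroma, against 47.8 CPM in muscle progenitors, although 3 of the 4 were positive in sarcoma cells. Endothelial markers summed to 2.33 to 321 CPM in sarcoma cells and 2.79 to 91.5 CPM in stroma, against 3.92 CPM in muscle progenitors. Mural, glial, tenocyte and erythroid sums in sarcoma cells ran from below to above the muscle value. The part of all these measures in the Slc2a1, Pkm and Hk2 differences was not tested.

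**Figure D3:**
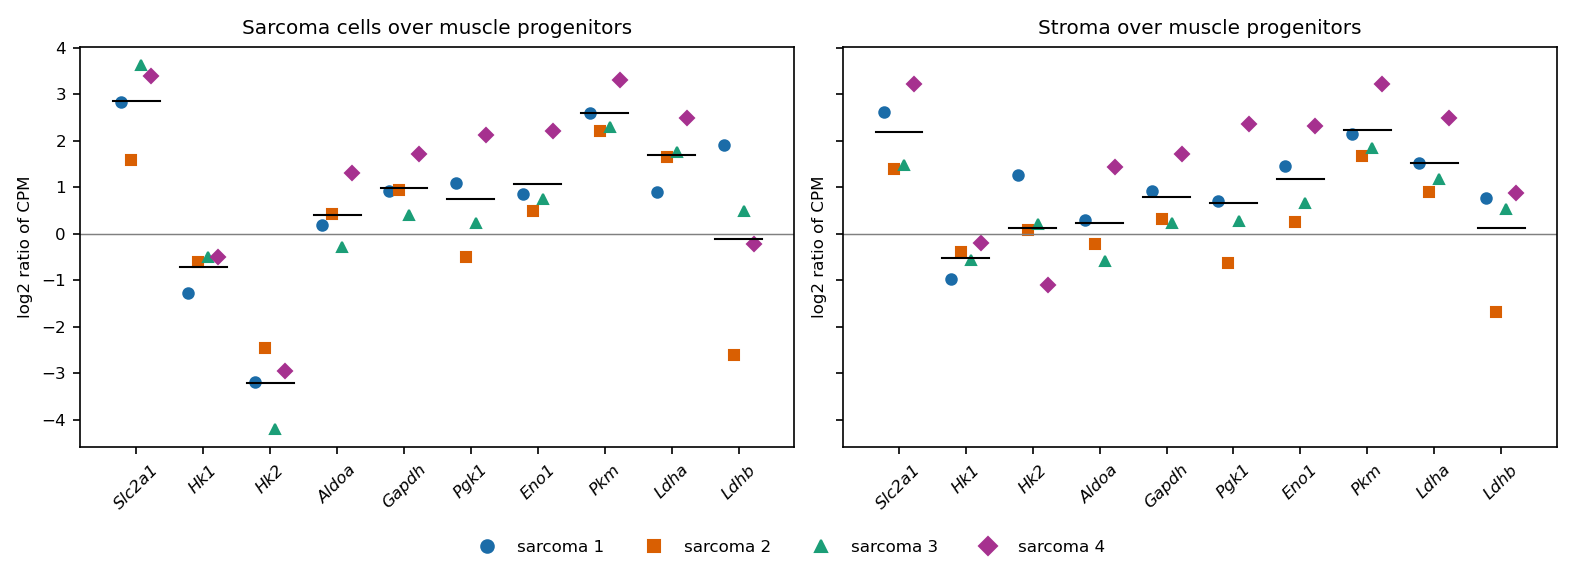
Log2 ratio of CPM over the single muscle progenitor value, for sarcoma cells (left) and stroma (right), with 1 symbol per sarcoma and a bar at their mean; the grey line is equality. Slc2a1, Gapdh, Eno1, Pkm and Ldha lie above the line in all 4 sarcomas in both panels, Hk1 lies below it in both, and Hk2 lies below it in every library for sarcoma cells only.

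Sarcoma cells were next divided inside each tumour by 21 HIF targets that are not glycolytic, such as Ddit4 and Bnip3. Each cell was thinned to 5000 UMIs, and the 25% with the most and the 25% with the fewest UMIs of the list were compared, with ties broken by a seeded draw. They were 1257, 1640, 703 and 801 cells of each kind in sarcomas 1 to 4. At the edges the high class began at 7, 6, 6 and 12 UMIs and the low class ended at 3, 2, 3 and 5. Median depth was 23290 to 31998 UMIs in HIF-target-high cells and 23450 to 33052 in HIF-target-low cells, and the median mitochondrial share 2.25% to 3.30% and 2.36% to 3.38%.

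All 10 genes had a positive fold change in HIF-target-high cells, as did 51.3% of all 13391 genes tested. Of the 10, 9 had an unadjusted p under 0.05 in edgeR's test, against 10.2% of all 13391 genes. None passed the adjusted threshold, at which edgeR called 2 genes higher (0.0149%) and 0 lower (0%). DESeq2 called 6 of the 10, all higher, among 81 genes higher and 43 lower. By CPM 7 of the 10 were higher in all 4 libraries, as were 8.32% of the 12498 genes with at least 1 CPM, and 0 were lower in all 4, as were 12.4%. The median log2 fold change of the 10 was 0.86, beside 0.00 over all genes.

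Hk2 had the largest difference of the 10. It stood at 21.7, 42.1, 11.5 and 37.1 CPM in HIF-target-high cells and at 4.29, 3.17, 2.13 and 1.06 CPM in HIF-target-low cells, so the groups did not overlap. Its log2 fold change was 3.39 ± 0.44 (edgeR adjusted p = 0.214), and it was higher in 4 of 4 libraries, by 5.06-fold to 35-fold. All 4 HIF-target-high values of Hk2 were below the stroma values of sarcomas 1 to 3. Those in sarcomas 2 and 4 were above the 36.9 CPM of sarcoma 4 stroma, a class that went against its name. All 4 were below the value given above for sarcoma 4 stroma with a Smarcb1 UMI. With no gene filter the edgeR adjusted p was 0.0264, and with the top and bottom 10% of cells it was 0.0243. Over all 12 alternatives the log2 fold change ran from 2.95 to 4.56 and the adjusted p from 4.37e-05 (DESeq2) to 1.00 (without the library block).

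Pgk1 had 17.2, 7.23, 8.49 and 50.4 CPM in HIF-target-high cells and 8.33, 2.10, 5.16 and 10.2 CPM in HIF-target-low cells, a log2 fold change of 1.56 ± 0.29 (edgeR adjusted p = 0.288). It was higher in each of the 4 tumours, although the groups overlapped. Slc2a1 had 73.8, 51.3, 87.1 and 182 CPM in HIF-target-high cells and 38.9, 8.61, 87.7 and 33.3 CPM in HIF-target-low cells. The gap was 1.90-fold in sarcoma 1, 5.96-fold in sarcoma 2 and 5.46-fold in sarcoma 4, and 0.992-fold in sarcoma 3. Its log2 fold change was 1.51 ± 0.47 (edgeR adjusted p = 0.418).

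The remaining genes had smaller differences. Aldoa had 608, 750.2, 402 and 1739 CPM in HIF-target-high cells and 358, 412, 276 and 577 CPM in HIF-target-low cells, a log2 fold change of 0.98 ± 0.19 (edgeR adjusted p = 0.316). Eno1 was at 1.02 ± 0.18, Gapdh at 0.75 ± 0.19, Ldha at 0.62 ± 0.12, Hk1 at 0.57 ± 0.22 and Pkm at 0.55 ± 0.17. Ldhb was at 0.09 ± 0.09, the smallest of the 10, with 87.0, 3.20, 33.4 and 19.96 CPM in HIF-target-high cells and 82.3, 4.01, 28.03 and 18.8 CPM in HIF-target-low cells. The Hk1 share of hexokinase tags was 45.1%, 40.8%, 69.3% and 53.2% in HIF-target-high cells and 76.4%, 87.0%, 92.5% and 94.2% in HIF-target-low cells.

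Slc16a3, which encodes the lactate exporter MCT4, was the 1 call outside the HIF list itself. It rose to 22.4, 44.4, 17.1 and 24.6 CPM in HIF-target-high cells, against 2.01, 3.53, 2.75 and 1.54 CPM in HIF-target-low cells, with a log2 fold change of 3.52 ± 0.21 (edgeR adjusted p = 0.0113). The other call, Ddit4, belongs to the list that made the split. Of 20 other tested genes of glycolysis and glucose transport, 0 were called and 14 were positive, with 9 at an unadjusted p under 0.05. The 4 most abundant, Pgam1, Tpi1, Gpi1 and Pfkl, had log2 fold changes of 1.21, 0.73, 1.18 and 1.42. Of 30 genes of the TCA cycle and respiratory chain, 0 were called and 8 were positive, with a median of -0.07. The 10 cycling genes were all negative, with a median of -0.60 and 0 calls, and summed to 533, 383, 177 and 183 CPM in HIF-target-high cells and 618, 558, 312 and 341 CPM in HIF-target-low cells. The part of cycling in the glycolytic differences was not tested.

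**Figure D4:**
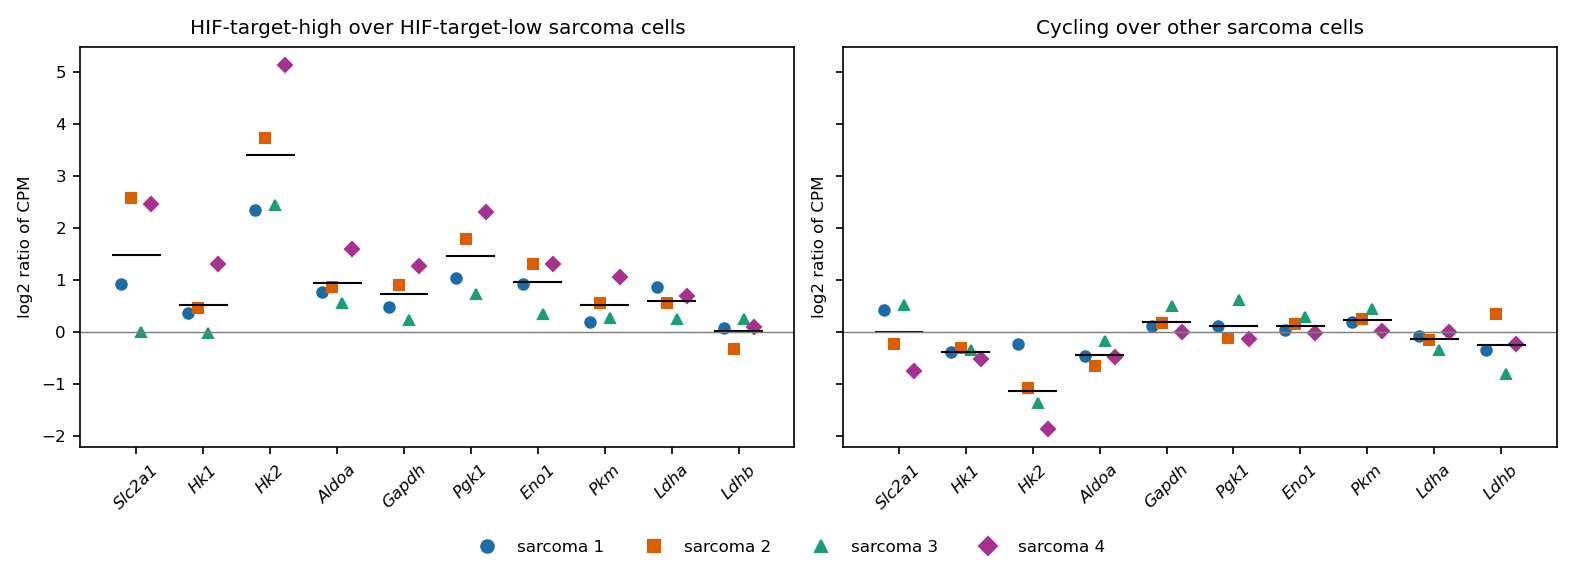
Log2 ratio of CPM within sarcoma cells for each of the 10 genes, HIF-target-high over HIF-target-low cells (left) and cycling over other cells (right), with 1 symbol per sarcoma, a bar at the mean of the 4 and a grey line at equality. Hk2 has the highest ratio of the 10 in each sarcoma on the left (5.06-fold to 35-fold) and lies below the line in all 4 sarcomas on the right, as do Hk1 and Aldoa.

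Cycling sarcoma cells, with 2 or more UMIs of 10 cycling genes after thinning to 5000 UMIs, were compared with cells that had 0. They numbered 1136, 1229, 216 and 380, against 3125, 4225, 2146 and 2153. edgeR's quasi-likelihood test called 3 of the 10 genes lower in cycling cells and 0 higher, beside 1107 genes lower (8.01%) and 1164 higher (8.42%) of 13818. Scaling by library totals gave 594 lower and 1515 higher and called the same number, 3, of the 10. The median log2 fold change of the 10 was -0.13, beside -0.07 over all genes. Hk2 fell to 7.55, 8.62, 1.87 and 2.78 CPM in cycling cells, against 8.91, 18.3, 4.82 and 10.2 CPM in other cells, a log2 fold change of -1.09 ± 0.27 (edgeR adjusted p = 0.0416). Hk1 fell to 12.3, 20.1, 20.3 and 18.5 CPM, against 16.1, 24.97, 25.8 and 26.7 CPM in other cells, a log2 fold change of -0.45 ± 0.09 (edgeR adjusted p = 0.0201). Aldoa fell to 351, 368, 292 and 730.4 CPM, against 482, 579, 329.9 and 1026 CPM in other cells, a log2 fold change of -0.50 ± 0.11 (edgeR adjusted p = 0.0263). All 3 were lower in 4 of 4 libraries, as were 17.4% of 12435 genes, and Pkm was higher in all 4, as were 24% of those genes.

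Each of the 3 calls was lost when certain tumours were left out. Without sarcoma 1, 2, 3 or 4 the edgeR adjusted p of Hk2 was 0.0207, 0.153, 0.0879 and 0.0527, that of Hk1 0.0663, 0.0857, 0.0375 and 0.0311 and that of Aldoa 0.0955, 0.130, 0.0086 and 0.0501, and without the library block none of the 3 was called. Gapdh, Pgk1, Eno1 and Pkm were between 0.02 and 0.16 on the log2 scale and Slc2a1 was at -0.06 ± 0.24, with 62.3, 19.9, 118 and 48.9 CPM in cycling cells and 46.9, 23.3, 81.9 and 82.5 CPM in other cells. Ldha was at -0.20 ± 0.07 (edgeR adjusted p = 0.0905) and Ldhb at -0.33 ± 0.16. Cycling cells were deeper, with a median of 30497 to 37037 UMIs, against 22380 to 31467 UMIs in other cells.

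Other branches of sugar use were also tested in cycling cells by edgeR. Of 15 tested genes of the pentose phosphate and serine branches, 5 rose and 1 fell. The serine and one-carbon enzymes Psat1, Shmt1 and Mthfd2 rose by 1.49, 1.48 and 0.93 on the log2 scale (edgeR adjusted p = 0.00886, 0.000498 and 0.00685), and Shmt2 and Mthfd1l by 0.42 and 0.47. Pgd, of the oxidative pentose branch, fell by 0.56 (edgeR adjusted p = 0.00891). Of 20 other genes of glycolysis and glucose transport, Gpi1, Pfkfb3 and Eno2 fell, by 0.50, 0.63 and 0.74, and Pfkfb1 rose at 0.339 to 1.30 CPM in cycling cells, against 0.170 to 0.620 CPM in other cells. Of 24 genes of pyruvate and lactate handling, malic enzyme Me2 rose by 0.59, while Pdk2, a kinase that inhibits pyruvate dehydrogenase, and Gpd1 fell by 0.58 and 1.11. Gpd1 was sparse, at 0.104 to 0.814 CPM in cycling cells, against 0.197 to 2.26 CPM in other cells. Of 30 genes of the TCA cycle and respiratory chain, 0 fell and 5 rose, Idh3a, Fh1, Cycs, Cox5a and Atp5o, by 0.32 to 0.42. Of 20 HIF targets outside glycolysis, 0 rose and 4 fell, Bnip3, Bnip3l, Ankrd37 and Plod2, by 0.57, 0.44, 0.34 and 0.29. The 18 dissociation-response genes summed to 6534 to 8509 CPM in cycling cells, against 7453 to 10018 CPM in other cells, with 8 lower and 1 higher. Their part in the Hk1, Hk2 and Aldoa calls was not tested.

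Across the 9 sums of sarcoma cells, stroma and muscle progenitors, the genes whose log2 level followed the mean standardised level of the 10 most closely, of 3154 with 50 CPM or more, were Pgam1 (r = 0.973), Pigx (0.954), Adss (0.953), Bccip (0.950), Tpi1 (0.947) and Glo1 (0.943). Pgam1 and Tpi1 encode glycolytic enzymes. The sums come from 5 libraries, classes of 1 tumour share their library, and sarcoma 4 holds the highest values in both of its classes. These r values are a description.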

How the data were processed

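FACS-purified cells, labelled tdTomato, entered 10x Chromium Single Cell 3′ v2 libraries, per the labels. The deposited values are raw UMI counts per gene and barcode, which the authors produced (Cell Ranger 6.0.1, per the file headers; mm10, per the submitters' processing notes). The annotation release is not given in the sources used here. Kept cells had 500 genes or more and no more than 10% mitochondrial UMIs (6824 to 8206 per sarcoma, 8107 in muscle; 63300999 to 211830490 UMIs per library). Counts were summed per class and library; cells meeting both the sarcoma and stroma rules (24 to 91 per sarcoma) were left out. Sums were tested with edgeR 4.0.16 in R 4.3.3 (quasi-likelihood test, TMM scaling, filterByExpr, Benjamini-Hochberg adjustment at 0.05 over all genes tested), with the library as a block for classes of the same tumours. SE is the log2 fold change divided by the square root of F. DESeq2 1.42.0, RLE scaling, library totals, no gene filter, other cell rules, thinning and leaving out each sarcoma were alternatives; limiting stroma to cells with a Smarcb1 UMI was added after seeing the data. Levels and shares were computed with Python 3.11.15, numpy 2.4.6, scipy 1.17.1 and pandas 2.3.3. The fit was run on simulated counts with known changes. That check was on the median estimated fold change, not on the number of true or false calls.

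The genes and lists were chosen with earlier results of these data known. Named were all 10 genes and the 6 genes most like the 10 in level. Of each other list a rule picked the called genes or, where none or more than 6 were called, the 4 with the highest mean CPM. Not every gene picked by that rule is printed, mainly for the comparisons with muscle. Since separate animals are not stated for the tumours, the p-values speak of the spread among these libraries alone, and that spread may be technical. The muscle library is a single sample, and the tests assume that muscle varies like the sarcomas. SE values against muscle therefore hold no spread among muscle libraries. Of the features, 27722 (99.0%) were found by identifier in GENCODE M21 on GRCm38.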

Additional observations from a re-analysis of the deposited data

Results flagged for a closer look

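Among 20 groups of 4 libraries tested (each of the 10 genes in sarcoma cells and in stroma), 1 held a library far from the others by Dixon's gap test, which chance alone flags in about 1 of 20. Eno1 in sarcoma cells of sarcoma 4 stood at 104 CPM, against 31.3 to 40.6 CPM in sarcomas 1 to 3. Its gap to the next library was 0.872 of the group's range.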

How the results depend on the processing

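Of 670 fold changes of the 10 genes under an alternative, 618 kept their direction and side of the threshold, 19 passed it anew, 11 no longer passed it and 22 turned sign. For sarcoma cells against stroma, where 0 of the 10 were called, DESeq2 called 2, and 1 was called with sums thinned to 2000 UMIs, with 8 or more stroma UMIs and with stroma limited to cells with a Smarcb1 UMI; leaving out a tumour gave 0 to 1. DESeq2 called 3 of the 10 in sarcoma cells against muscle progenitors, 1 in stroma against muscle progenitors, 3 in whole libraries and 6 in the HIF-target split, where no gene filter and the top and bottom 10% of cells each gave 1. In cycling cells, 3 called, leaving out a tumour gave 0 to 2 and dropping the library block 0. The causes were not tested. Over all genes, sarcoma cells against stroma gave 34 higher and 137 lower calls, against 1273 and 1945 with DESeq2, 593 and 974 without sarcoma 4, 0 and 0 without sarcoma 1 or 2, 0 and 2 without sarcoma 3, 0 and 38 without the library block, 164 and 408 with thinned sums, 200 and 351 with 8 or more stroma UMIs, 122 and 293 with rules on thinned cells, 3 and 28 with cells meeting both rules kept in stroma, and 469 and 717 with stroma limited to cells with a Smarcb1 UMI. Stroma against muscle progenitors gave 0, against 128 higher and 157 lower without sarcoma 4 and 36 and 64 with that limit. In cycling cells, scaling by library totals gave 1515 higher and 594 lower, against 1164 and 1107. Dropping the library block gave 299 and 0 there, and leaving out sarcoma 1, 2 or 3 gave 588 and 213, 645 and 210, and 941 and 551. In the HIF-target split 2 higher calls compare with 17 higher and 1 lower without a gene filter and 10 higher with the top and bottom 10% of cells.

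Of the fold changes of the 10 genes, these turned sign. Against stroma, leaving out a tumour gave log2 fold changes of -0.0427 to 0.158 for Pgk1, -0.185 to 0.0747 for Eno1, -0.0007 to 0.446 for Ldha and -0.672 to 0.0749 for Ldhb. Pgk1 was at -0.0403 with stroma limited to cells with a Smarcb1 UMI. Eno1 was at 0.147 with sums thinned to 2000 UMIs and at 0.0373 with rules on cells thinned to 5000 UMIs. Ldhb was at 0.245 without the library block and at 0.218 with thinned sums. Against muscle progenitors, leaving out a tumour gave -0.245 to 1.17 for Ldhb in sarcoma cells, and -0.108 to 0.697 for Hk2 and -0.0471 to 0.696 for Aldoa in stroma. In cycling cells it gave -0.269 to 0.220 for Slc2a1, -0.131 to 0.151 for Pgk1 and -0.0304 to 0.133 for Eno1. There, without the library block, Slc2a1 was at 0.0098, Pgk1 at -0.0666 and Eno1 at -0.0357, and Pgk1 was at -0.0099 with no gene filter. The Hk1 share in sarcoma cells minus stroma ran from 39.1 to 52.2 percentage points over 11 alternatives, against 45.4 as reported.

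Comparisons with muscle could not be paired, because the muscle library has no partner for any sarcoma. Classes of the same tumour carry the library block. Depth was low for Hk2 in sarcoma cells, at 306 to 2846 UMIs per library, and for Pgk1, at 428 to 2435 in sarcoma cells and 14 to 246 in stroma. Stroma counts were also low for other genes, such as Hk1, at 78, 117 and 91 UMIs in sarcomas 1, 2 and 4.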

Other observations

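Slc16a1, which encodes the lactate and pyruvate carrier MCT1, set sarcoma 4 apart and was chosen after its values were seen. It had 9.02, 21.0, 16.4 and 587 CPM in sarcoma cells of sarcomas 1 to 4 and 21.3, 61.8, 79.0 and 616 CPM in stroma, against 16.6 CPM in muscle progenitors. Sarcoma 4 was also the highest of the 4 for the summed level of the 10 genes in both classes, at 4570 CPM in sarcoma cells and 4658 CPM in stroma, where sarcomas 1 to 3 had 2209 to 2415 CPM and 1655 to 2549 CPM. The stroma class of sarcoma 4 went against its name, so its values are no separate check on those of the sarcoma cells. Sarcoma 4 is 1 library from 1 site, so tumour, site and library cannot be told apart.

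Cells of the tumours that met neither the sarcoma nor the stroma rule, 2067, 603, 2303 and 3389 in sarcomas 1 to 4, had Hk2 levels between those of the 2 classes. They stood at 22.4, 37.2, 18.7 and 19.9 CPM, against 8.73, 14.5, 4.31 and 10.2 CPM in sarcoma cells. A Smarcb1 UMI was present in 8.8%, 35.3%, 19.8% and 1.48% of these cells, against 57.1%, 76.3%, 69.2% and 16.5% of stroma. How many of them are tumour cells was not tested. The Hk2 levels of sarcoma cells thus describe only cells that passed the Gchfr rule. Ldhb levels in cells meeting neither rule were 182, 16.01, 37.5 and 22.5 CPM, against 84.0, 3.71, 31.3 and 19.3 CPM in sarcoma cells.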
